A study of Mus musculus with 12 samples.

Results

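Public T cell receptor (TCR) beta chains, the same protein found in many animals, were followed here in sorted mouse thymocytes. A beta chain was taken as an amino acid clonotype, that is, 1 combination of V segment, J segment and CDR3 protein sequence, where the CDR3 is the loop formed at the V-D-J join. Chains were called public when they had at least 1 read in at least 10 of the 12 libraries of the series, and 334 of 406405 productive beta chains met that rule. Of these, 165 were found in 10 libraries, 121 in 11 and 48 in all 12, whereas 346332 chains were found in 1 library. The number of libraries chose the chains, so their abundance and spread across libraries are given as a description.

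The libraries came from Chrna9-/- mice, here called knockout (KO), and from wild-type (WT) mice; Chrna9 encodes a subunit (alpha 9) of nicotinic acetylcholine receptors. Single-positive thymocytes of each mouse were sorted into a CD4 fraction (CD4SP) and a CD8 fraction (CD8SP), which gave 4 groups of 3 libraries: KO CD4SP, WT CD4SP, KO CD8SP and WT CD8SP. The 6 mice formed 2 pairs of males and 1 pair of females, and a CD4SP sample had 1000000 sorted cells where a CD8SP sample had 330000. The title of the study names negative selection, by which thymocytes with receptors that bind self strongly are removed. The sources used here do not give strain, age, the construction of the deleted allele or which pair was female. The gate used CD4 and CD8 only, and TCR libraries hold no reads of Chrna9, Cd4 or Cd8, so neither the deletion nor the sort was checked.

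A beta chain is made when a V, a D and a J segment are cut and joined, with bases trimmed from the segment ends and random bases added by the enzyme TdT. Most joins are seen in 1 animal, but some proteins can be reached by several different joins or by joins with few added bases, and such chains recur between animals; reaching 1 protein through different nucleotide sequences is called convergent recombination. After beta chains pair with alpha chains, CD4SP thymocytes are selected on MHC class II and CD8SP thymocytes on MHC class I. The TRB locus lies on mouse chromosome 6.

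The most read public chain joined TRBV13-1 to TRBJ2-7 with the CDR3 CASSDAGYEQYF. Its 5 most read nucleotide forms are shown because they encode the same protein and differ in only a few bases; all sequences run 5′ to 3′ over the CDR3 as deposited, with capitals for the bases between the aligned ends of V and J.
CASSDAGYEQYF form 1: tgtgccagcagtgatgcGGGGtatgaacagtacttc
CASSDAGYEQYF form 2: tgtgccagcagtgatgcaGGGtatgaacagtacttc
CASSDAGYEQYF form 3: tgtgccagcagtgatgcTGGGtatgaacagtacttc
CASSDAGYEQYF form 4: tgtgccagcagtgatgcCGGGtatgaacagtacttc
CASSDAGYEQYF form 5: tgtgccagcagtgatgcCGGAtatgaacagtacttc
These forms had 79, 70, 64, 23 and 18 reads and were found in 5, 6, 6, 4 and 4 of the 6 mice. Between V and J they held 3 or 4 bases, and no D segment was assigned to any of them.

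At the other end, 5 public chains had a single nucleotide form, and each of these forms was found in all 6 mice. They are shown because they have few or no bases between V and J.
TRBV13-2 TRBJ2-7 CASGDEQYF: tgtgccagcggtgatgaacagtacttc
TRBV13-2 TRBJ2-7 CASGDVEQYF: tgtgccagcggtgatgTtgaacagtacttc
TRBV13-1 TRBJ1-3 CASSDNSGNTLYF: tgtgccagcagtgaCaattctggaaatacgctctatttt
TRBV13-1 TRBJ1-3 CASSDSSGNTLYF: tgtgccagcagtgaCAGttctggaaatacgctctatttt
TRBV13-3 TRBJ2-2 chain of 14 residues: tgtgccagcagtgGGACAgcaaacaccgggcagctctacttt
They had 73, 62, 51, 40 and 40 reads in all. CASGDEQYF, the shortest public CDR3 with 9 residues, had 0 bases between V and J, and the others had 1, 1, 3 and 5, of which the 5 in the TRBV13-3 chain were aligned to TRBD1.

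The chains on which the CD4SP and CD8SP comparison turns are shown next by their most read forms. The first 4 had more reads in CD4SP and the last 3 more in CD8SP.
TRBV20 TRBJ2-7 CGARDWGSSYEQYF: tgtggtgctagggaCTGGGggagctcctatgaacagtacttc
TRBV31 TRBJ2-3 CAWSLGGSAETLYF: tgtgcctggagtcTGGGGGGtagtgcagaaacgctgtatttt
TRBV31 TRBJ2-7 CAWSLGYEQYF: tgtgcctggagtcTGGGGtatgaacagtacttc
TRBV5 TRBJ2-5 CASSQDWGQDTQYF: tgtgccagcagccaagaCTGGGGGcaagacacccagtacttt
TRBV14 TRBJ2-7 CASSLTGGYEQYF: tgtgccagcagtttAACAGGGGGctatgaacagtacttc
TRBV12-1 TRBJ2-7 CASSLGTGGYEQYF: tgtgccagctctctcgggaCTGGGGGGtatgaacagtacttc
TRBV5 TRBJ2-7 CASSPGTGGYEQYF: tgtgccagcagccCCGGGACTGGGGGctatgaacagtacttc
All 7 carry a run of G between V and J. The best D segment was TRBD1 for the form of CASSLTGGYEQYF and TRBD2 for the other 6, and 0 bases stayed outside V, D and J in those 6.

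Public chains were rare in reads. Productive TRB reads numbered 80040 to 104434 in KO CD4SP, 74021 to 86935 in WT CD4SP, 118507 to 119381 in KO CD8SP and 92648 to 134169 in WT CD8SP libraries. A library held reads of 277 to 306 of the 334 chains. The chains had 18 to 342 reads each over all libraries, with a median of 58, and the highest count in 1 library was 73. Of the counts above 0, 12.3% were a single read, so the count of 1 chain in 1 library is imprecise. A count of 0 allows up to 2.24 to 4.05 reads per 100000, depending on the library. The reads are RNA-derived and carry no molecule counts, so these limits cover counting error only, and fewer cells of a clone cannot be told apart from less RNA per cell. The 282 chains just outside the rule, in 9 libraries, had 17 to 193 reads with a median of 37, against 18 to 140 with a median of 51 for those in 10 libraries.

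V segment use differed from that of the other chains. TRBV5 (chromosome 6, 41062359 to 41062803) was carried by 99 public chains, 29.6%, against 12.3% of all other chains. TRBV13-1 (41116036 to 41116468) was carried by 81, or 24.3% against 10.9%, and TRBV13-3 (41130147 to 41130585) by 52, or 15.6% against 10.3%. In each of the 12 libraries, all 3 segments took a larger share of the reads of public chains than of the reads of other chains. For TRBV5 the share had a median over libraries of 32.7% of public reads and 13.5% of other reads. Together the 3 segments made up 69.5% of public chains. Most of the other chains were found in 1 library. Among the 3022 chains in 6 to 9 libraries, TRBV5 was carried by 631, TRBV13-1 by 484 and TRBV13-3 by 370. Positions are those of the RefSeq gene table for the mm10 assembly.

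The remaining V segments with at least 3% of public chains were TRBV31 with 26 chains (7.78% against 10.7% of others), TRBV12-1 with 23 (6.89% against 5.56%), TRBV29 with 14 (4.19% against 8.69%) and TRBV13-2 with 12 (3.59% against 3.99%). TRBV31 (41557693 to 41558371), which lies beyond the J segments and joins by inversion, took a larger share of public than of other reads in only 1 of 12 libraries, and TRBV29 in 0 of 12. The TRBV13 family, known as Vbeta8, held 145 public chains, 43.4% against 25.2% of all chains. Endogenous superantigens are mouse mammary tumor virus proteins that delete T cells by their Vbeta. A list of 7 V segments taken here as binding them held 50 public chains, or 14.97% against 31.9% of all chains. Public chains were found for 6 of those 7, all except TRBV16. The list may not be complete, and the shares hold for its 7 segments only. TRBV13-3, which is not on it, alone held 52 public chains. In all, 16 V segments had a public chain.

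Among J segments, TRBJ2-7 (41543810 to 41543856) was carried by 166 public chains, 49.7% against 20.7% of other chains. It was carried by 1027 of the 3022 chains in 6 to 9 libraries. Its median share over libraries was 53.6% of public reads and 23.3% of other reads, and the public share was the higher in 12 of 12 libraries. The other J segments with at least 3% of public chains were TRBJ2-5 with 33, TRBJ1-1 and TRBJ2-1 with 31 each, TRBJ2-4 with 28 and TRBJ2-3 with 19. Each of these took a smaller share of public than of other reads in all 12 libraries. The TRBJ1 cluster had 15.9% of public chains against 29.1% of others, and TRBJ1-5 had none.

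**Figure D1:**
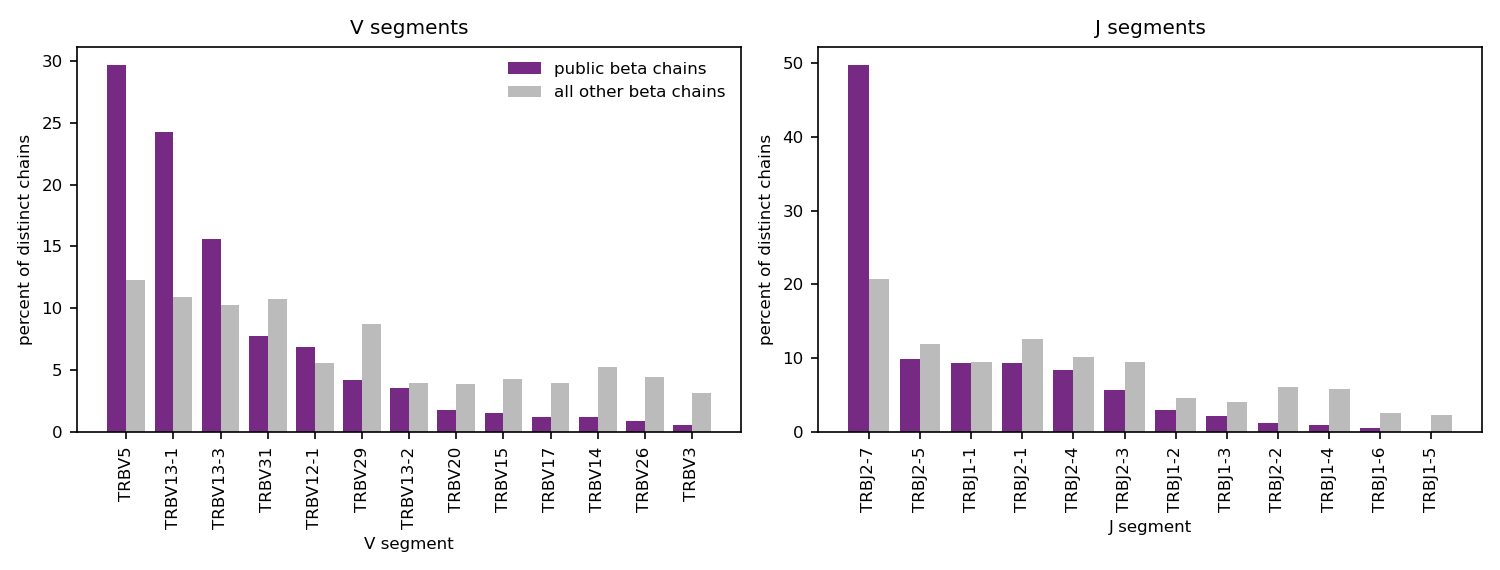
Percent of distinct beta chains (y axis) that carry each V segment (left) or J segment (right), for the 334 public chains and for all other chains; V segments with at least 3% of either set are drawn. TRBV5 stands at 29.6% of public chains against 12.3% of others, and TRBJ2-7 at 49.7% against 20.7%.

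Public CDR3s were shorter than those of all other chains, but most of the gap was absent among chains with as many reads. Public CDR3s had 9 to 16 residues and a mean of 12.9, against 13.9 for all other chains. Mean length was 12.923 residues for the 169 public chains of 44 to 81 reads and 12.997 for the 303 other chains in that range. CDR3s of 10 residues made up 4.79% of public chains and 0.938% of others, and CDR3s of 12 residues 20.1% against 10.7%. The order was the opposite for 15 residues, at 7.78% against 22.3%, and for 16 residues, at 0.898% against 9.32%. In each library the mean CDR3 length of public nucleotide forms was 12.8 to 13.1 residues, against 13.7 to 13.8 for the forms of other chains, so the ranges did not overlap. The longest public CDR3s were 3 of 16 residues, and the most read of them was a TRBV5 TRBJ2-1 chain that began CASSQDWGG, with 65 reads in 9 forms.

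Public joins held fewer bases that belong to no segment, but here too most of the gap was absent among chains with as many reads. Averaged per chain, unaligned bases had a mean of 1.76 for public chains and 3.46 for all other chains. Within the range of 44 to 81 reads per chain, the means were 1.83 for 169 public chains and 2.15 for 303 other chains. Over the 12 libraries, public forms had a mean of 1.40 to 1.62 bases outside the aligned V, D and J, against 3.13 to 3.18 for the forms of other chains. Against other chains with the same V, J and CDR3 length, the range of the others was 3.0 to 3.07, so most of the gap remained with segment use and length matched. Forms with no such base made up 37.7% to 43.5% of public forms and 13.1% to 13.7% of other forms. Between the ends of V and J, public forms had 5.78 to 6.19 bases on average, against 8.94 to 9.16, or 8.08 to 8.35 with V, J and length matched. Among chains of 44 to 81 reads, the mean per chain was 5.76 for public chains and 6.25 for other chains. A D segment was assigned to 55.3% to 61.3% of public forms and to 71.3% to 73.6% of others. An aligner can take an added base that matches a segment end as germline, so these are counts of unaligned bases, not of bases added by TdT.

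Each public protein was usually encoded in several ways. The 334 chains had 2783 nucleotide forms, with 1 to 22 per chain, a median of 8 and a mean of 8.33, against a mean of 1.22 for all other chains. For 120 chains there were 10 or more forms. The 5 chains with most forms were TRBV14 TRBJ2-7 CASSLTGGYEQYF with 22, TRBV12-1 TRBJ2-7 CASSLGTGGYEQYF and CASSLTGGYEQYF with 20 each, TRBV12-1 TRBJ2-7 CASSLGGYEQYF with 19, and TRBV31 TRBJ2-3 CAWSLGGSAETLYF with 18. A chain needs reads in at least 10 libraries to be public, which gives it more chances to show several forms. Within the range of 44 to 81 reads per chain, 169 public chains (median of 58 reads) had a mean of 8.18 forms and 303 other chains (median of 52 reads) a mean of 7.71. The gap in the number of forms was small within that range.

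The trend ran through chains found in fewer libraries too. The mean number of forms was 1.01 for chains in 1 library, 4.93 for those in 6, 7.88 for those in 10 and 8.88 for those in 12. The mean of unaligned bases was 3.64, 2.03, 1.83 and 1.80 at the same steps, but 1.65 at 11 libraries, below the value at 12. Mean CDR3 length was 13.97, 13.27, 12.90 and 12.56 residues at those steps, but 13.12 at 11 libraries, above the value at 10. Reads rose along this axis as well, with a median of 2 for chains in 1 library and 96.5 for those in 12, and their part in the trend was not tested.

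**Figure D2:**
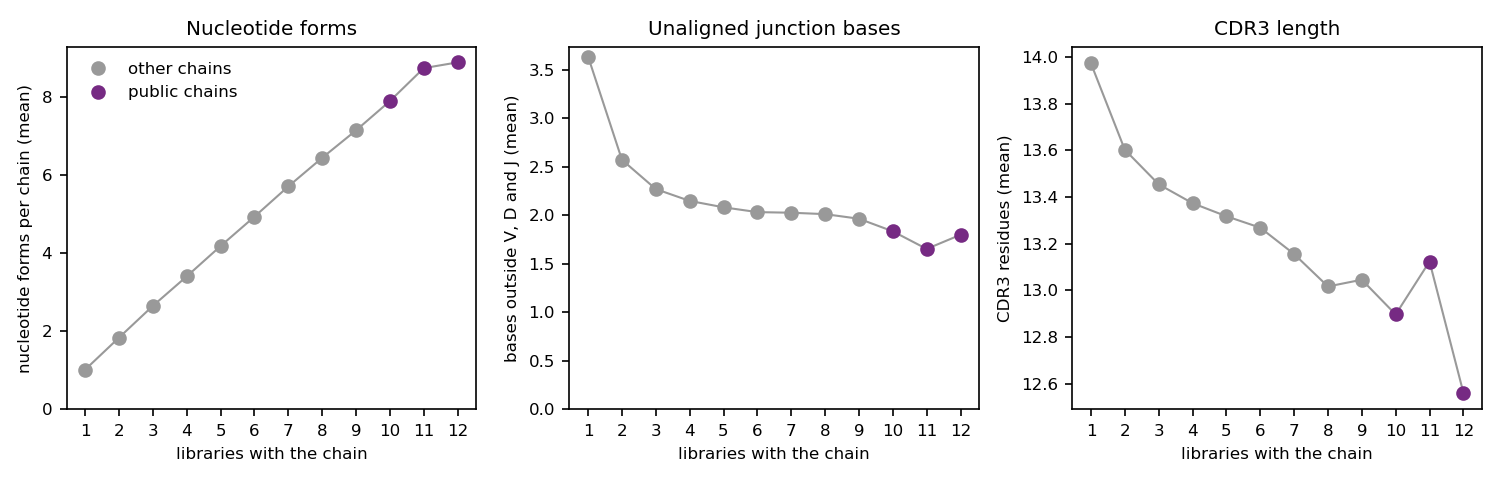
Mean nucleotide forms per chain (left), bases outside V, D and J (middle) and CDR3 residues (right) against the number of libraries in which a chain was found; grey points are other chains and purple points public chains. Forms run between 1.01 at 1 library and 8.88 at 12, unaligned bases stand at 3.64 at 1 library, 1.65 at 11 and 1.80 at 12, and length at 13.97, 13.12 and 12.56 at the same steps.

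Many forms of public chains were found in 1 mouse only. Of the 2783 forms, 1497 (53.8%) were found in 1 mouse and held 16.8% of public reads, while 133 (4.78%) were found in all 6 mice and held 26.6%. Those 1497 include 494 forms with 1 read in all, which could not be found in more than 1 mouse. Forms found in more mice had fewer unaligned bases: the mean was 2.17 for forms in 1 mouse and 0.880 for those in 6. Forms without any unaligned base were 22.4% of those in 1 mouse and 60.9% of those in 6. In 62 cases a nucleotide form was by itself in 10 or more libraries, and these belonged to 61 chains. The most read form held a median of 37.3% of a chain's reads, between 11.4% and 100%. Without the most read form of each, 109 chains still met the rule of 10 libraries. Forms private to a single mouse were present in 2 or more mice for 277 of the 334 chains.

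**Figure D3:**
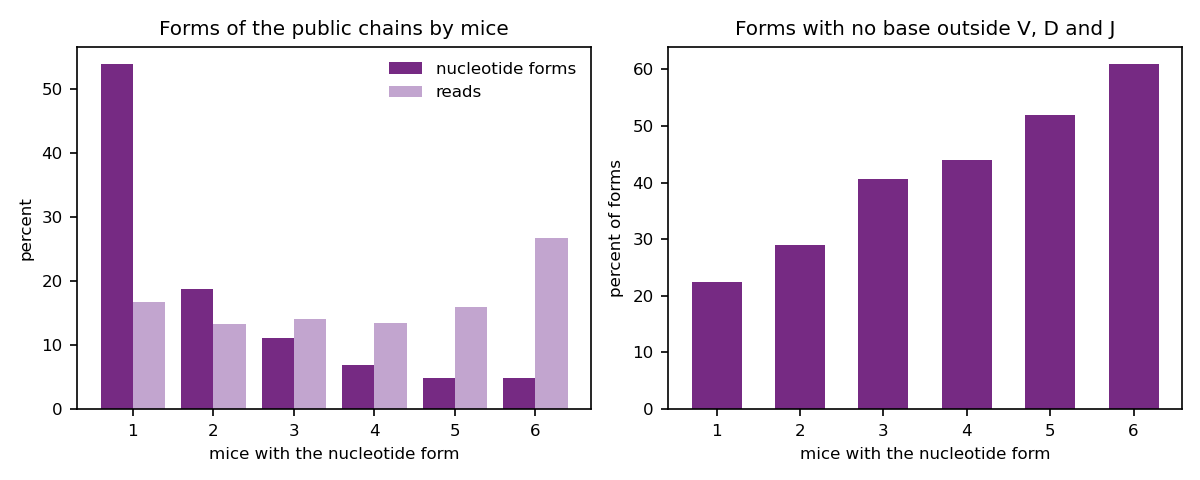
Nucleotide forms of the public chains by the number of mice in which a form was found: percent of forms and of reads (left) and percent of forms with no base outside V, D and J (right). Forms in 1 mouse are 53.8% of forms and 16.8% of reads; forms in 6 mice are 4.78% of forms and 26.6% of reads, and 60.9% of them have no unaligned base.

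Forms of a chain could look quite alike or quite different. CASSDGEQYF with TRBV13-1 and TRBJ2-7 had 175 reads in 8 forms, and 1 form, found in all 12 libraries, held 56.0% of them. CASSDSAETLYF was public with both TRBV13-1 (177 reads, 6 forms) and TRBV13-3 (171 reads, 7 forms), and the most read form held 64.4% and 75.4% of the reads. TRBV14 TRBJ2-7 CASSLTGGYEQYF was the reverse case: its most read form held 15.2%, none of its 22 forms was found in more than 4 libraries, and 12 of them were in 1 mouse. TRBV5 TRBJ2-7 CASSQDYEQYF had 4 forms and 110 reads, all with 0 bases between V and J.

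Public CDR3s were also alike in protein sequence. The 334 chains had 295 distinct CDR3s, and 36 of these were carried by more than 1 V and J pair. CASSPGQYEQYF, singled out after its values were seen, joined TRBJ2-7 to TRBV5, TRBV15, TRBV29 and TRBV26, with 93, 55, 54 and 31 reads. For 201 chains another public chain with the same V, J and length differed by 1 residue. The largest set linked in this way had 15 chains, all of TRBV5 and TRBJ2-7.

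Several short motifs recurred, and these were chosen after the values were seen, so they have no test. DWG, which TRBD2 can encode, was in the CDR3 of 61 public chains, 18.3% against 4.59% of other chains. It was also in 264 of the 3022 chains in 6 to 9 libraries. Of the 518 forms of the 61 public chains with DWG, 95.0% had TRBD2 as best D, against 37.5% of all public forms. TRBV5 chains that began CASSQDWG numbered 18, or 5.39% of public chains against 0.163% of others. TRBV13-1 chains that began CASSD numbered 69, or 20.7% against 4.57%. Most of the other chains were found in 1 library. Among the 3022 chains in 6 to 9 libraries, 49 were TRBV5 chains with CASSQDWG and 321 were TRBV13-1 chains with CASSD.

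CD4SP and CD8SP libraries of the 6 mice were compared next, to ask whether public chains were shared evenly between the lineages. Of the 334 chains, 11 passed the test: 8 were higher and 3 were lower in CD4SP than in CD8SP thymocytes, by log2 fold changes between -3.47 and 3.94. The 8 chains used TRBV31 (4), TRBV5 (2) and TRBV20 (2), and the 3 used TRBV14, TRBV12-1 and TRBV13-1, all joined to TRBJ2-7. The test was edgeR's quasi-likelihood test with the mouse as a block and Benjamini-Hochberg adjustment over the 3356 beta chains with reads in at least 6 libraries, at a threshold of 0.05. Over all chains tested, 4.41% were called, 3.4% higher and 1.01% lower in CD4SP. The share of public chains called in this setting, 3.29%, was no higher than that background. All 334 public chains were tested, and 57 had an unadjusted p under 0.05, against 696 of all 3356 chains tested. The median standard error of the log2 fold change of the public chains was 1.10.

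The 11 calls depended on the filter and the tool. DESeq2 called 64 public chains, or 19.2% (52 higher, 12 lower), where 13.2% of all tested were called, 11.1% higher and 2.15% lower. With edgeR's filterByExpr, which left 97 public chains, 33 were called, or 34% (19 higher, 14 lower). There 58.6% of all tested were called, 37.4% higher and 21.2% lower. With chains in at least 3 libraries admitted, 1 of the 334 was called (0.299%), where 0.184% of all tested were called. Without the mouse as a block 23 were called (6.89%), where 9.12% of all tested were called. The share of public chains called was thus above the background in DESeq2 and with at least 3 libraries, where it rested on 1 call. DESeq2 scaled the libraries on chains with reads in every library. These are the 48 public chains found in all 12, so its share is not independent of the public chains. With filterByExpr and without the block the share was below the background. filterByExpr was given the 4 groups and asks for enough reads in only 3 libraries. Chains high in 1 group can pass it, so no conclusion is drawn from its 34% and 58.6%. In every one of these settings the 11 chains lay on the side given above.

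TRBV20 TRBJ2-7 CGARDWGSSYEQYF had 31, 21 and 18 reads in KO CD4SP and 15, 21 and 11 in WT CD4SP, against 3, 6 and 0 in KO CD8SP and 2, 1 and 0 in WT CD8SP. Every CD4SP library was above every CD8SP library. Its level was 21.7 ± 5.16 reads per 100000 productive reads in CD4SP and 1.76 ± 1.93 in CD8SP (SD, n = 6 libraries each). The log2 fold change was 3.94 (SE 0.863, edgeR with Benjamini-Hochberg adjusted p = 0.000775), with CD4SP higher in 6 of 6 mice. It was the only one of the 11 that passed under all 14 alternatives tried, with adjusted p between 0.00186 and 0.00921 when a mouse was left out. The other TRBV20 call, TRBJ2-3 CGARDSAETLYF, had 7, 17 and 8 reads in KO CD4SP and 12, 13 and 5 in WT CD4SP, against 0, 7 and 2 in KO CD8SP and 2, 0 and 1 in WT CD8SP. Its log2 fold change was 3.11 (SE 0.998, edgeR with Benjamini-Hochberg adjusted p = 0.0450; higher in 6 of 6 mice), and the call was lost when any 1 mouse was left out, with adjusted p between 0.0950 and 0.178. A single form held 83.8% of its reads, and with each form counted once the log2 fold change was 1.04 (adjusted p = 0.399).

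The 4 called TRBV31 chains were all higher in CD4SP and had CDR3s that began CAWSLG. Of the 13 public TRBV31 chains with that start, 10 had a log2 fold change above 0, against 22 of all 26 public TRBV31 chains. TRBV31 TRBJ2-3 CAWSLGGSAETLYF had 26, 41 and 39 reads in KO CD4SP and 30, 35 and 24 in WT CD4SP, against 1, 7 and 8 in KO CD8SP and 4, 16 and 0 in WT CD8SP. The lineages did not overlap, at 37.2 ± 8.18 reads per 100000 in CD4SP and 5.18 ± 4.80 in CD8SP (SD, n = 6 libraries each). The log2 fold change was 3.29 (SE 0.699, edgeR with Benjamini-Hochberg adjusted p = 0.000517), higher in 6 of 6 mice and called with any 1 mouse left out. TRBJ2-7 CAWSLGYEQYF reached 3.35 (SE 0.835, edgeR with Benjamini-Hochberg adjusted p = 0.00507; 6 of 6 mice), with 10 to 36 reads in CD4SP libraries against 0 to 6 in CD8SP libraries. The other pair joined TRBJ2-4, a J segment of the TRBJ2 cluster: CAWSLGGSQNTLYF at 3.29 (adjusted p = 0.00915) and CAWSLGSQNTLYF at 3.12 (adjusted p = 0.0133), both in the same edgeR fit and in 6 of 6 mice. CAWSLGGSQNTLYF was no longer called without KO mouse 2 (adjusted p = 0.0582) or KO mouse 3 (0.0521). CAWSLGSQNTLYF was no longer called without KO mouse 3 (0.0620), WT mouse 1 (0.0791) or WT mouse 3 (0.0860).

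The TRBV5 calls carried the CASSQDWG start. TRBV5 TRBJ2-5 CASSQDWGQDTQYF had 30, 23 and 28 reads in KO CD4SP and 15, 23 and 31 in WT CD4SP, against 10, 1 and 21 in KO CD8SP and 3, 0 and 9 in WT CD8SP. Per 100000 reads it stood at 28.8 ± 8.60 in CD4SP and 6.13 ± 6.49 in CD8SP (SD, n = 6 libraries each), with no overlap, by a narrow margin. Its log2 fold change was 2.77 (SE 0.732, edgeR with Benjamini-Hochberg adjusted p = 0.0104; 6 of 6 mice), and the call was lost without KO mouse 2 (0.0586) or WT mouse 2 (0.0816). TRBV5 TRBJ2-5 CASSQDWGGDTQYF, with 4 to 13 reads in CD4SP libraries against 0 to 3 in CD8SP libraries, had a log2 fold change of 3.25 (SE 1.05, edgeR with Benjamini-Hochberg adjusted p = 0.0475; 6 of 6 mice). Its call was lost without any 1 mouse, at adjusted p between 0.0713 and 0.168. Of the 18 TRBV5 chains that began CASSQDWG, 16 had a log2 fold change above 0, with a median of 1.23, and 2 were called. For all 99 public TRBV5 chains the median was 0.60, with 65 above 0. Among TRBV5 chains in 6 to 9 libraries, the 49 with CASSQDWG had a median of 1.31 and 34 above 0. All 631 TRBV5 chains there had a median of 1.13 and 442 above 0.

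TRBV13-1 TRBJ2-7 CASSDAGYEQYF, the most read public chain with 342 reads in 17 forms, was lower in CD4SP. It had 1, 7 and 11 reads in KO CD4SP and 5, 17 and 4 in WT CD4SP, against 68, 33 and 44 in KO CD8SP and 30, 49 and 73 in WT CD8SP. Every CD8SP library was above every CD4SP library, at 8.77 ± 6.70 reads per 100000 in CD4SP and 41.6 ± 11.9 in CD8SP (SD, n = 6 libraries each). The log2 fold change was -2.45 (SE 0.648, edgeR with Benjamini-Hochberg adjusted p = 0.0105; lower in 6 of 6 mice), and the call was lost without KO mouse 1 (adjusted p = 0.0652).

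TRBV14 TRBJ2-7 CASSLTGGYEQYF had 0, 1 and 2 reads in KO CD4SP and 1, 4 and 3 in WT CD4SP, against 15, 37 and 24 in KO CD8SP and 27, 27 and 24 in WT CD8SP. It was low in all CD4SP libraries, with a log2 fold change of -3.47 (SE 0.835, edgeR with Benjamini-Hochberg adjusted p = 0.00316; lower in 6 of 6 mice), and was called with any 1 mouse left out. TRBV12-1 TRBJ2-7 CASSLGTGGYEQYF had 3, 4 and 0 reads in KO CD4SP and 2, 3 and 1 in WT CD4SP, against 33, 32 and 25 in KO CD8SP and 13, 9 and 18 in WT CD8SP. The lineages again did not overlap, and the log2 fold change was -2.92 (SE 0.856, edgeR with Benjamini-Hochberg adjusted p = 0.0239; lower in 6 of 6 mice). That call was kept only when WT mouse 2 was the one left out, and adjusted p reached up to 0.106 without 1 of the others.

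**Figure D4:**
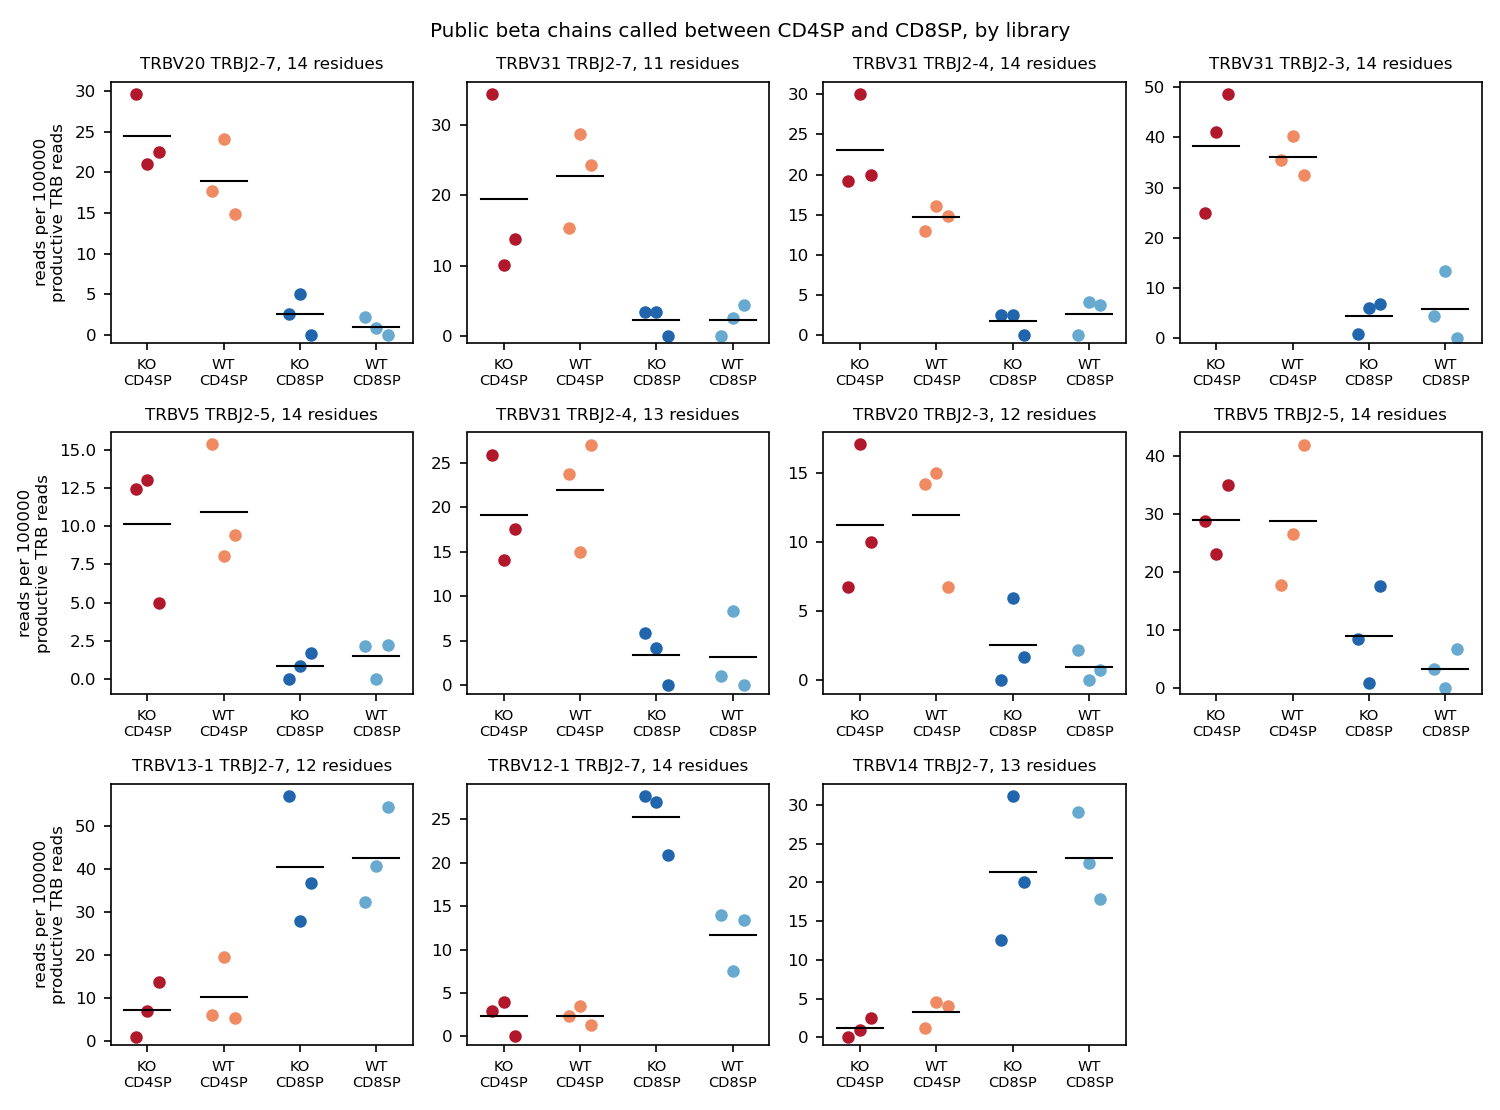
Reads per 100000 productive TRB reads (y axis) in each library (points) and group mean (line, n = 3) for the 11 public chains called between CD4SP and CD8SP, each panel headed by its segments and CDR3 length. In the top 8 panels all CD4SP libraries lie above all CD8SP libraries, and in the last 3 all lie below.

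Without regard to the test, lineages did not overlap for 13 public chains with CD4SP higher (3.89%; background 4.53%) and for 8 with CD8SP higher (2.40%; background 1.85%). Log2 fold changes of the 334 chains had a median of -0.12, against 0.06 over all chains tested, with 157 above 0 and 177 below. The rule requires reads in at least 4 libraries of each lineage, which leaves out chains confined to 1 lineage. TRBV31 shows this limit: its 26 public chains had a median log2 fold change of 1.13, against 2.75 for its 441 chains in 6 to 9 libraries.

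Chains of the same V segment often lay on the same side. Among TRBV31 chains 22 of 26 were above 0 and among TRBV5 chains 65 of 99, whereas 1 of 23 TRBV12-1 and 0 of 14 TRBV29 chains were. TRBV29 is listed as a pseudogene in the RefSeq table, although its productive joins were read here. For TRBV13-1, TRBV13-3 and TRBV13-2, 32 of 81, 20 of 52 and 6 of 12 were above 0. In the superantigen-binding list as a whole, 5 of 50 public chains had a log2 fold change above 0, with a median of -0.92, 0 called higher and 1 called lower. In the TRBV13 family 58 of 145 were above 0, with a median of -0.29, 0 called higher and 1 called lower.

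The same V segments leaned that way among the other chains. TRBV31 had 21.3% ± 0.413 of the productive reads of other chains in CD4SP and 5.48% ± 0.148 in CD8SP (SD, n = 6 libraries each), a log2 ratio of 1.96. TRBV14 had 2.23% ± 0.0881 in CD4SP and 7.72% ± 0.271 in CD8SP, a log2 ratio of -1.79. Across the 334 public chains, the log2 fold change of a chain and the log2 ratio of its V segment among other chains had Pearson's r = 0.51 and Spearman's rho = 0.50. This is a description over chains that share libraries, depth and, within a segment, the V value itself.

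With the reads of its V segment taken as the library size, 2 public chains were called (0.599%), where 0.477% of all tested were called. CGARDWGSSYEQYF kept a log2 fold change of 3.52 (SE 0.857, edgeR with Benjamini-Hochberg adjusted p = 0.0225; reads per 100000 higher in CD4SP in 6 of 6 mice). TRBV5 TRBJ2-7 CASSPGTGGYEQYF, which was not called against all TRB reads (-2.12, adjusted p = 0.0573), stood at -2.89 (SE 0.731, adjusted p = 0.0324). It had 4, 10 and 2 reads in KO CD4SP and 4, 6 and 4 in WT CD4SP, against 30, 37 and 9 in KO CD8SP and 20, 34 and 46 in WT CD8SP. It was lower in CD4SP in 6 of 6 mice, although its segment TRBV5 was higher there (log2 ratio 0.79). The 4 TRBV31 calls had log2 fold changes of 1.23 to 1.46 within TRBV31 and were not called.

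Within TRBV5, chains thus lay on both sides. The 14 public TRBV5 chains that began CASSPG, a group chosen after the values were seen, had a median log2 fold change of -1.01, with 2 of 14 above 0, against a median of 1.23 for the 18 that began CASSQDWG. Among TRBV5 chains in 6 to 9 libraries, which the rule did not select, the 41 with CASSPG had a median of -0.38 and 15 above 0, and the 49 with CASSQDWG a median of 1.31 and 34 above 0. The groups were picked for this contrast, so no test is given.

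**Figure D5:**
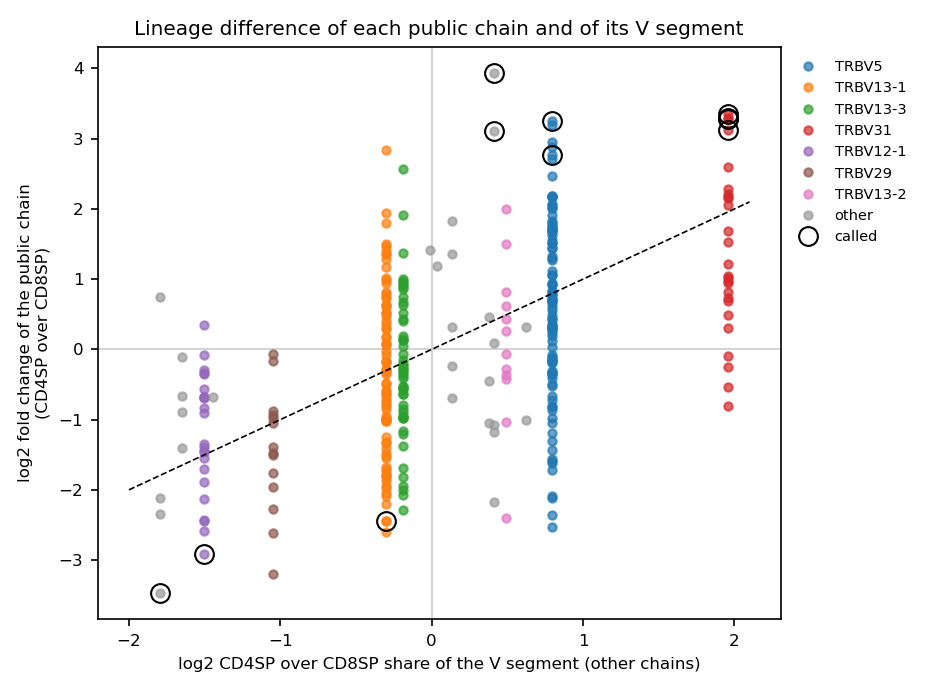
Log2 fold change, CD4SP over CD8SP, of each of the 334 public chains (y axis) against the log2 ratio of its V segment among all other chains (x axis), coloured by V segment; black rings mark the 11 called chains and the dashed line marks equality. TRBV31 lies at 1.96 on the x axis with 22 of 26 chains above 0, and TRBV12-1 at -1.50 with 1 of 23 above 0.

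The remaining abundant chains were not called between lineages in the main test. TRBV5 TRBJ2-7 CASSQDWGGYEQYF had 22, 42 and 6 reads in KO CD4SP and 32, 47 and 9 in WT CD4SP, against 9, 0 and 9 in KO CD8SP and 13, 16 and 9 in WT CD8SP. Lineages overlapped, and its log2 fold change of 1.74 (SE 0.700) did not pass (edgeR with Benjamini-Hochberg adjusted p = 0.133, higher in 5 of 6 mice). The same chain was called as higher in CD4SP by DESeq2 (adjusted p = 0.0114). It was also called in edgeR with filterByExpr (adjusted p = 0.0306) and without the mouse as a block (adjusted p = 0.0217). TRBV13-1 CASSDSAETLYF was at -0.18 (SE 0.691), TRBV13-3 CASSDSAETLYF at -0.56 (SE 0.727), TRBV5 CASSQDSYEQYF at 0.44 (SE 0.723), the TRBV5 TRBJ2-1 chain of 15 residues that began CASSQDWGN at 0.95 (SE 0.730) and TRBV13-1 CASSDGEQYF at -1.55 (SE 0.744), none of them called. Among the chains with most forms, TRBV12-1 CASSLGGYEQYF was at -2.44 (SE 0.873), with 1 to 5 reads in CD4SP libraries against 12 to 23 in CD8SP libraries, and TRBV12-1 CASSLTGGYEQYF at -2.12 (SE 1.03), and neither was called. The 5 chains with a single form lay between -0.28 and 1.99, none of them called.

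Some counts rested on 1 library. TRBV13-1 TRBJ2-7 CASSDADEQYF had 23 of its 52 reads in WT CD8SP library 2, which was 44.2%. TRBV12-1 TRBJ2-3 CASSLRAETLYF had 15 of 34 reads in WT CD8SP library 3 (44.1%), and TRBV31 TRBJ2-1 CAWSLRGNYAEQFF had 24 of 57 in WT CD8SP library 2 (42.1%). These 3 are the largest shares of any public chain.

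Invariant NKT cells can fall in the same gate, and TRAV11 to TRAJ18 joins with a CDR3 of 15 residues, which mark their alpha chain, made up 5.26% to 8.49% of productive TRA reads in CD4SP libraries, against 0.0495% to 0.0897% in CD8SP libraries. These cells mostly carry beta chains of the TRBV13 family, TRBV29 and TRBV1. Public chains with one of these 5 segments numbered 160, and 59 of them had a log2 fold change above 0, with a median of -0.35, 0 called higher and 1 called lower in CD4SP. Reads per nucleotide form of public chains also moved with lineage, at 2.72 to 3.18 in CD4SP libraries against 3.77 to 4.24 in CD8SP libraries. The same was seen over all chains, at 1.79 to 2.01 in CD4SP libraries against 2.52 to 2.87 in CD8SP libraries. The libraries do not pair alpha with beta chains, and the part of these cells and of reads per form in the differences between lineages was not tested.

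Between genotypes, the question was whether loss of Chrna9 changed any public chain. In CD4SP thymocytes 0 of 334 public chains passed (edgeR, Benjamini-Hochberg adjustment, background 0%). Before adjustment 1 public chain was under 0.05, against 89 of all 3356 chains tested. The DESeq2 count was 0 (2 before adjustment, against 31 of all tested). In CD8SP thymocytes edgeR also called 0 of 334 (background 0%), with 4 under an unadjusted p of 0.05, against 166 of all 3356 tested. There the DESeq2 count was 0 (6 unadjusted, against 58 of all tested). The genotype effect was not called as different between the lineages for any public chain in edgeR or DESeq2. Unadjusted, 3 public chains were under 0.05 in edgeR, against 29 of all tested, and 7 in DESeq2, against 22 of all tested. The median standard error of a chain's log2 fold change was 1.49 in CD4SP and 1.46 in CD8SP, so a single chain that missed the threshold is not shown to be alike in the genotypes.

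The 3 chains of smallest p in CD4SP are given as values. TRBV13-1 TRBJ2-7 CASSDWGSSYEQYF had 12, 16 and 3 reads in KO CD4SP and 3, 0 and 0 in WT CD4SP, a log2 fold change of 3.06 (SE 1.48, edgeR with Benjamini-Hochberg adjusted p = 1). TRBV5 TRBJ2-7 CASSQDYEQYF had 4, 4 and 0 reads in KO CD4SP against 15, 7 and 7 in WT CD4SP (-2.23, SE 1.18). The TRBV13-1 TRBJ2-3 chain of 15 residues that began CASSDAGG had 2, 3 and 1 against 13, 4 and 6 (-1.97, SE 1.24), and the adjusted p was 1 for both. In reads per 100000 the genotypes overlapped for none of these 3 chains, which the choice by smallest p makes likely. For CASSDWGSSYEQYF the closest libraries, KO CD4SP 3 and WT CD4SP 1, both had 3 reads. They stood at 3.75 and 3.55 per 100000 and differed only by library size.

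In CD8SP the smallest p belonged to TRBV5 TRBJ2-4 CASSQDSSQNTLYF, with 0, 2 and 0 reads in KO CD8SP and 10, 14 and 15 in WT CD8SP. Groups did not overlap, which the choice by smallest p makes likely. The log2 fold change of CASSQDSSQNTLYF, -4.21 (SE 1.26), did not pass (edgeR with Benjamini-Hochberg adjusted p = 0.913). In CD4SP the same chain had 15, 14 and 19 reads in KO and 10, 20 and 6 in WT libraries (0.41, SE 0.992). TRBV5 TRBJ2-7 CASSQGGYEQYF had 0, 1 and 2 reads in KO CD8SP against 9, 8 and 15 in WT CD8SP (-3.25, SE 1.46), and TRBV5 TRBJ2-7 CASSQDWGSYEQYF had 0, 7 and 3 against 11, 25 and 9 (-2.26, SE 1.05). For these as well the adjusted p was 0.913.

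Genotypes did not overlap in CD4SP for 14 public chains that were higher in KO (4.19%; background 4.38%) and for 22 that were lower in KO (6.59%; background 4.05%). In CD8SP they were 12 higher in KO (3.59%; background 4.14%) and 19 lower in KO (5.69%; background 3.93%). Median log2 fold changes, KO over WT, were -0.05 in CD4SP and 0.04 in CD8SP, against 0.00 and 0.01 over all chains tested.

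Summed over all 334, public chains held 1.81%, 1.79% and 1.81% of productive TRB reads in KO CD4SP, against 1.82%, 1.97% and 1.90% in WT CD4SP. The groups did not overlap, by a narrow margin. In CD8SP the sums were 1.86%, 1.83% and 1.83% in KO, against 2.06%, 1.86% and 1.92% in WT, and the groups overlapped. Whether the groups overlapped depended on the setting in both lineages. In CD4SP they overlapped with 8, 9, 11 or 12 libraries as the rule and with all libraries thinned to 74021 reads, at 1.53% to 1.58% in KO against 1.56% to 1.67% in WT. They did not overlap with each form counted once (1.14% to 1.21% in KO against 1.23% to 1.28% in WT) or without forms of 1 read (2.12% to 2.17% against 2.23% to 2.32%). In CD8SP they overlapped with 11 or 12 libraries as the rule, when thinned, and without forms of 1 read. They did not overlap with 8 libraries (3.98% to 4.14% in KO against 4.24% to 4.48% in WT), with 9 (2.73% to 2.78% against 2.88% to 3.14%) or with each form counted once (1.25% to 1.26% against 1.28% to 1.38%). The chains were chosen on these reads, so no test is given.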

How the data were processed

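Clonotype tables of 12 TCR libraries were used. The series design text names MiXCR and VDJtools, and the build mm10 is per the submitters' processing notes; for versions, quality filters and alignment settings the entry is: not given in the sources used here. Per the file headers, the deposited values are read counts per nucleotide clonotype, and the deposited fraction served only as a check of those counts. Chains with an uncovered CDR3 (0.513% to 0.837% of TRB reads), a frame shift or a stop (1.35% to 2.31%) were left out, and the best V and J hits were used without alleles. Unaligned junction bases are CDR3 bases outside the deposited V, D and J alignments.

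The public chains, the segment lists and the motifs were chosen with earlier results of these data known. edgeR 4.0.16 in R 4.3.3 was run on the 3356 chains with reads in at least 6 libraries, with productive TRB reads as library size. CD4SP against CD8SP and the test of unequal genotype effects had the mouse as a block, and genotype tests had the replicate number as a block, on all 12 libraries, with both libraries of a mouse taken as independent. A standard error is the log2 fold change divided by the square root of edgeR's F. DESeq2 1.42.0 was an alternative. The script was tested on simulated counts: with the fitted spread between libraries it returned the simulated fold changes but few of them passed the threshold, and more passed with a smaller spread. Tables were made with Python 3.11.15 and pandas 2.3.3.

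CD4SP and CD8SP libraries with the same genotype and number shared 3.35% to 3.81% of the smaller library's nucleotide clonotypes (6 library pairs), against 1.65% to 2.11% for other CD4SP and CD8SP pairs (24), so the number marks a mouse. KO and WT libraries of 1 number and lineage shared 2.47% to 3.20%, against 2.39% to 3.23% for other pairs of that lineage, so pairing of genotypes rests on the design text.

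Chains named in the text were, by rule, the 10 of highest mean share, up to 8 called per direction between lineages, the 5 with most and the 5 with fewest forms, the 3 of smallest p per genotype test, the longest and the shortest CDR3, and the 3 with the largest share in 1 library; segments with at least 3% of public chains and both V lists were named whole. Others are said to be chosen after their values were seen. Chromosome positions are from the RefSeq gene table.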

Additional observations from a re-analysis of the deposited data

How the results depend on the processing

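The number of public chains, 334 in the main setting, was 616 with at least 9 libraries, 169 with at least 11, 48 with 12, 155 with 2 or more reads in 10 libraries, 1578 by CDR3 amino acids alone, 62 by nucleotide CDR3 with V and J, and 109 without the most read form of each (added after seeing the data). With 1 mouse left out and 8 of 10 libraries required it ranged from 469 to 519. The summed share had a median of 1.85% over libraries, 1.25% with each nucleotide clonotype counted once and 2.12% without clonotypes of 1 read. Between CD4SP and CD8SP, edgeR called 11 public chains; DESeq2 called 64, filterByExpr 33, at least 3 libraries 1, reads of the same V segment as library size 2, and leaving out 1 mouse 6 to 8. No replicate block gave 23 calls. All 11 were also called by DESeq2, with filterByExpr and without the block. DESeq2 differs from edgeR in scaling, spread and test. Its size factors rest on chains with reads in every library, which are the 48 public chains found in all 12. These 48 held 0.332% to 0.386% of productive TRB reads in CD4SP libraries and 0.462% to 0.548% in CD8SP libraries. In DESeq2 the median log2 fold change of all chains tested was 0.66, against 0.06 in edgeR (0.08 with TMM factors). The DESeq2 calls were 52 higher and 12 lower, and the cause of these differences was not tested. Genotype tests gave 0 public chains in every setting run, with and without the replicate block. Counts of single chains were low, with a median of 5 reads among those above 0.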
